A study of Mus musculus with 6 samples.

Results

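Bile acid synthesis and transport were followed through 31 genes in whole livers of mice that lacked AEG-1 (astrocyte elevated gene 1, the product of Mtdh) in hepatocytes. The members were chosen by name, with earlier results of these data known. They cover the classical and alternative routes of synthesis, conjugation, uptake from blood and export. All 31 matched 1 row each of the 46983 rows of the count table. The growth protocol names AEG-1DHEP and AEG-1fl/fl mice, the sample titles write AEG_1CKO and WT, and the genotype label of the second group is only "control". Whether the controls carried the floxed allele or were wild type is therefore not settled by the labels. Both groups were 12 weeks old, on a C57BL/6 background, chow-fed and untreated. The sources used here do not give the promoter that drove the deletion or the hour of harvest. The labels name 3 mice per group, but control replicates 1 and 2 held the same value in each of the 46983 rows, a difference below sampling noise, so they were counted as 1 sample, called control replicate 1. The labels call the samples biological replicates. The comparison was therefore 3 knockout against 2 control libraries.

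Hepatocytes make bile acids from cholesterol. In the classical route Cyp7a1 carries out the first and rate-limiting hydroxylation and Cyp8b1 directs the product towards cholic acid, while Cyp27a1 and Cyp7b1 open the alternative route. The finished acids are joined to taurine in the mouse, pumped into the bile canaliculus and taken up again from portal blood. Their level is held by feedback, in which the nuclear receptor FXR (Nr1h4) induces the repressor SHP (Nr0b2) in the liver and the hormone FGF15 in the gut, and FGF15 acts on hepatocytes through the receptor Fgfr4 and its partner Klb.

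Mtdh had 2.90, 2.23 and 2.37 CPM (the count scaled to library size, with the trimmed mean of M values) in knockout replicates 1, 2 and 3, against 48.0 and 54.6 CPM in control replicates 1 and 3, so each library went with its label. Library totals lay between 29557477 and 33685670 counts. The Y-linked gene Ddx3y held 2519 to 3247 counts per library and Xist at most 6. The hepatocyte marker Alb stood at 53725 to 80510 CPM, while the bile duct markers Krt7, Krt19, Epcam and Cftr stood at no more than 1.19 CPM in any library. Summed over its 8 genes, among them Sox9 and Spp1, the bile duct list had 70.2 to 86.7 CPM in knockout and 64.1 to 81.4 CPM in control livers. The 6 sinusoidal endothelial markers all had lower fitted values in the knockout livers (median log2 fold change -0.54), as had the 6 Kupffer cell markers (median -0.23) and the 6 stellate cell markers (median -0.18), with 0 of these 18 past the adjusted threshold in edgeR or DESeq2 and 3 (Pecam1, Cdh5 and Col1a1) at an unadjusted p under 0.05. Of all genes tested, 1.8% were lower at an unadjusted p under 0.05 in edgeR. In 3 of the 6 endothelial markers (Pecam1, Cdh5 and Lyve1) every knockout library lay below both controls. This held for 1 stellate marker, 0 Kupffer cell markers and 8.72% of all genes tested. The summed levels overlapped between the groups, for the endothelial list at 120 to 170 CPM in knockout and 161 to 199 CPM in control livers, for the Kupffer list at 223 to 276 against 234 to 310 CPM, and for the stellate list at 158 to 234 against 200 to 223 CPM. Their part in the results below was not tested. In whole liver, fewer cells of a type and less RNA per cell cannot be told apart.

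No tested bile acid gene passed the adjusted threshold of the edgeR quasi-likelihood test. Small changes would mostly be missed, since the test recovered 5.33% of 1.5-fold changes in simulated counts. Of the 31 members, 29 had enough counts to be tested, and 0 of 29 passed an adjusted p of 0.05, beside 0.00608% of all 16441 genes tested, which is the single gene Mtdh. By DESeq2 it was also 0 of 29, beside 0.0873% of all genes. At an unadjusted p under 0.05 there was 1 higher member, Slc10a1, and 0 lower, where all genes gave 1.63% higher and 1.8% lower. The fitted values were higher in knockout livers for 18 members and lower for 11, which is 62.1% higher, beside 52.1% over all genes tested. Control replicate 1 was the lowest library in 11 of the 29 tested members, and each of the other libraries in 4 or 5. The median log2 fold change was 0.12 for the members and 0.01 for all genes. Every knockout library lay above both control libraries in 4 of the 29 members and below both in 3, and these shares stand beside 8.16% and 8.72% of all genes. The means of the groups differed by less than 1.5-fold in 28 of the 29 tested members, the exception being Cyp7a1. For 21 members the 95% interval of the fitted log2 value held no change of 2-fold or more, and the median half-width of the intervals was 0.53.

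**Figure D1:**
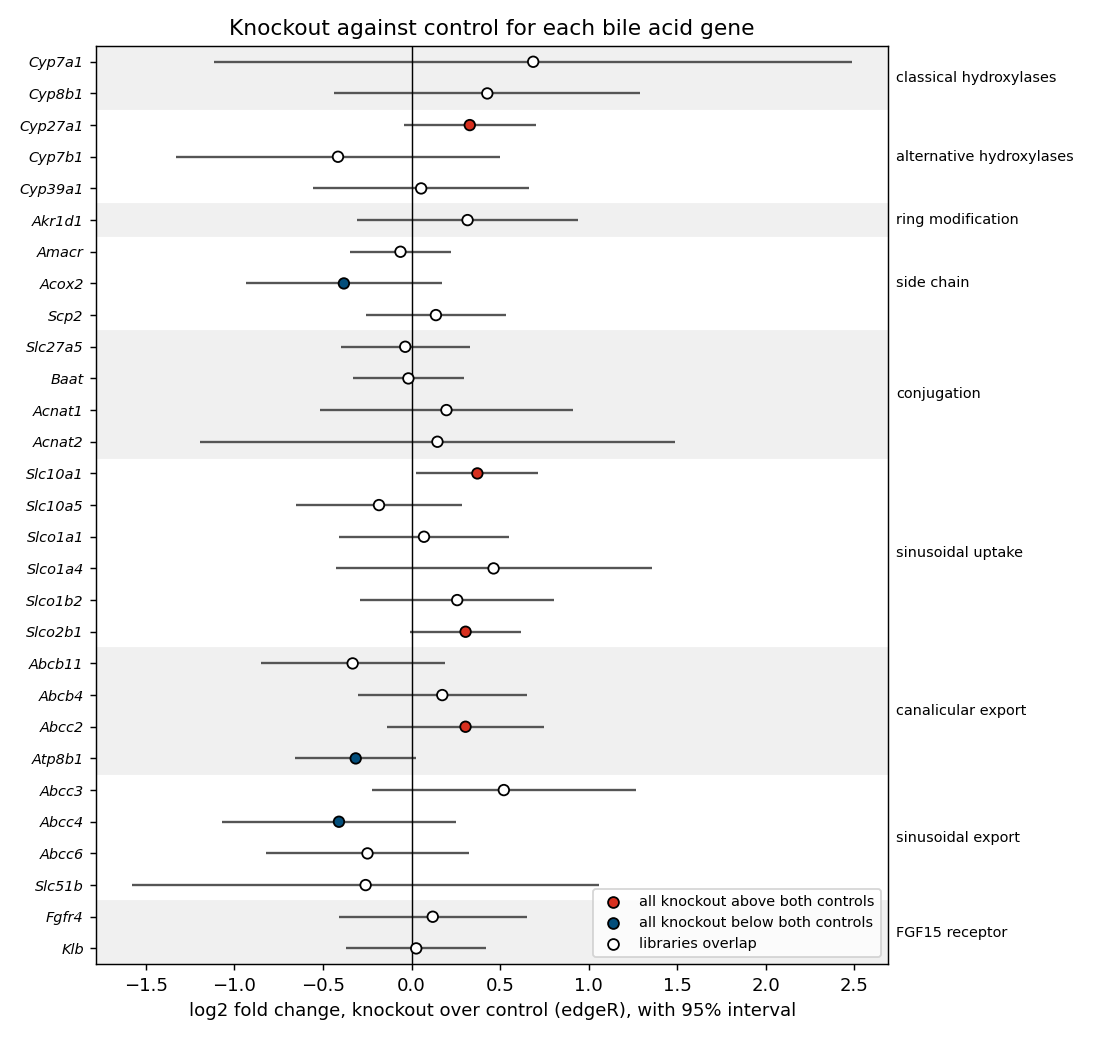
Fitted log2 fold change of each tested bile acid gene (horizontal axis, knockout over control, edgeR) with its 95% interval as a line, grouped by role. Red points mark the 4 genes with all knockout libraries above both controls and blue points the 3 genes with all of them below. The interval of Slc10a1 (0.03 to 0.72) is the only one that does not include 0.

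Levels spanned more than 3 orders of magnitude when set per length. Given as RPKM (CPM per kilobase of exon) averaged over the 5 libraries, Scp2, a carrier and thiolase of the peroxisomal side chain pathway, stood highest at 1324. It was followed by the uptake transporter Slc10a1 at 452, the bile acid-CoA synthetase Slc27a5 at 384, the uptake transporter Slco1b2 at 323 and Cyp27a1 at 200. The lowest tested members were the exporter Abcc4 at 0.296 RPKM, the transporter subunit Slc51b at 0.791 and the oxysterol hydroxylase Cyp39a1 at 3.58. Cyp8b1 (143), Baat (144), Cyp7b1 (130), Abcb11 (125), Slco1a1 (115) and Abcc2 (113) stood close together in RPKM, and Cyp7a1 had 42.5. The value of Scp2 carries an uncertainty, because 29.7% of the 50-base windows of its transcripts also occur in the pseudogene Scp2-ps2.

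**Figure D2:**
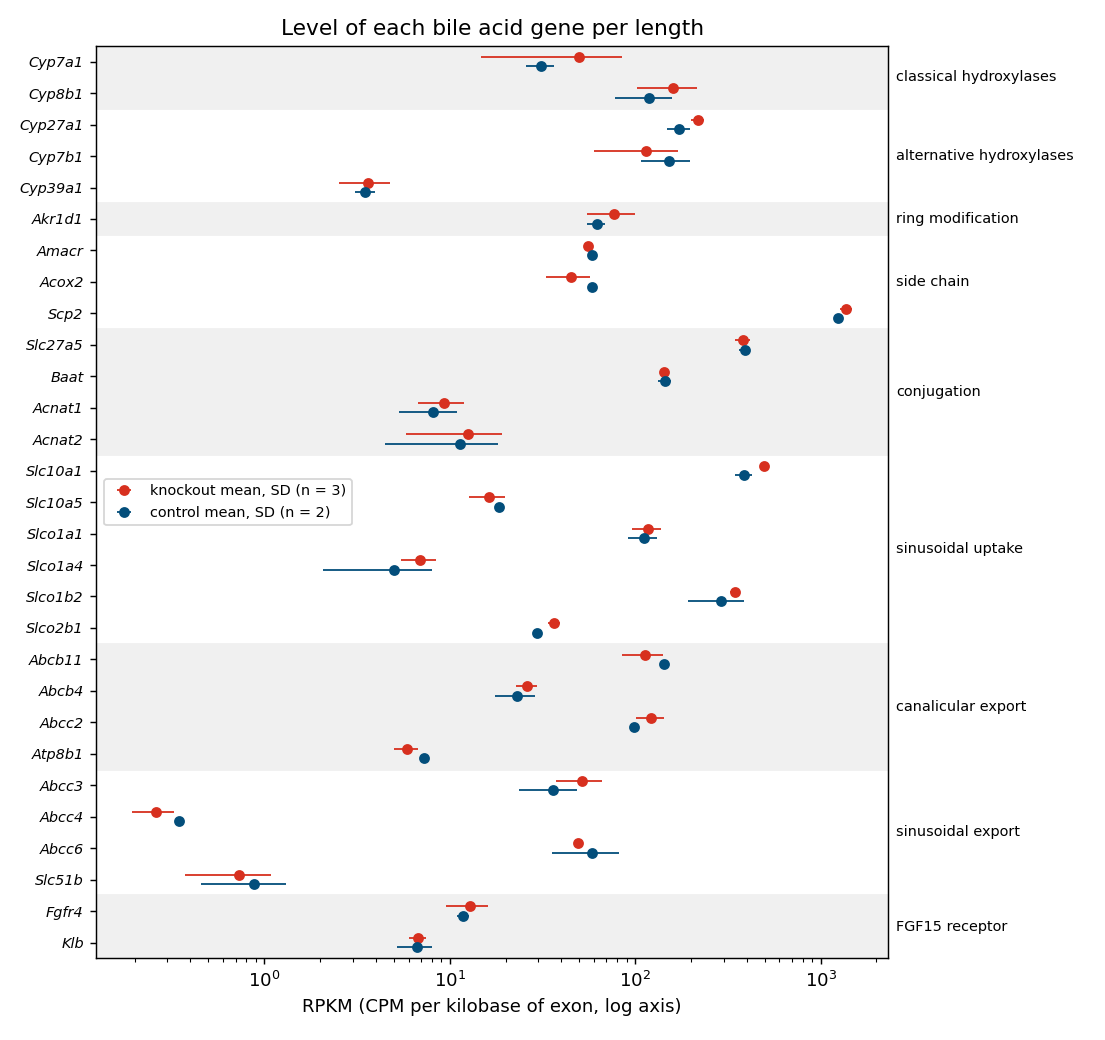
Level of each tested member per length (RPKM, log axis), with knockout means in red (SD, n = 3) and control means in blue (SD, n = 2). The 2 means lie less than 1.5-fold apart for every gene but Cyp7a1, while the genes themselves run from 0.296 (Abcc4) to 1324 (Scp2) averaged over all libraries.

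Of the hydroxylases that start the pathway, Cyp7a1 varied most between mice. Cyp7a1 (ENSMUSG00000028240, chromosome 4, 6265612 to 6275633 on GRCm38) had 281, 39.2 and 307 CPM in knockout replicates 1, 2 and 3 and 114 and 146 CPM in control replicates 1 and 3. Both the highest and the lowest library were knockouts, 7.82-fold apart. The means were 209 ± 148 CPM (SD, n = 3) and 130 ± 22.3 CPM (SD, n = 2), and the log2 fold change was 0.69 (SE 0.75; 95% interval -1.11 to 2.49), with an edgeR adjusted p of 1.00. Each knockout library moved this value: leaving out knockout replicate 1 gave 0.41, leaving out knockout replicate 3 gave 0.30 and leaving out knockout replicate 2 gave 1.18 (SE 0.18). The last did not pass in edgeR (adjusted p 0.887) and passed in DESeq2 (adjusted p 2.25e-06), the only call of a member in any fit made. That DESeq2 fit was chosen after seeing the data. Leaving out the knockout library furthest from the others by itself shrinks the SE, so this p cannot show a difference between the groups.

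The clock genes placed knockout replicate 2 apart as well. Cyp7a1 is known to follow a daily rhythm. The clock genes Per1 and Per2, named here after their values were seen, ranked the libraries as Cyp7a1 did, from knockout replicate 3 through knockout 1, control 3 and control 1 down to knockout 2. Per1 had 48.9, 42.7, 32.3, 20.0 and 10.5 CPM in that order, and Per2 had 85.7, 53.5, 45.6, 32.8 and 20.0 CPM. Ciart, likewise named afterwards, had 21.2, 17.9, 18.6, 13.3 and 2.44 CPM. Arntl, which peaks in antiphase to the Per genes, had 0.687, 0.912, 2.54, 2.45 and 6.22 CPM, so it was highest where Cyp7a1 was lowest. The same order of libraries as in Cyp7a1 was found in 1.61% of all genes tested. Knockout replicate 2 was the lowest library in 8 of the 15 clock genes and the highest in 3, and in 20.2% and 22.0% of all genes. This is a description over 5 livers that share their libraries, and the part of the clock in the level of Cyp7a1 was not tested. Of the clock list, 0 of 15 passed in edgeR or DESeq2 and 0 had an unadjusted p under 0.05, with Dbp at a log2 fold change of -0.68 (SE 0.30), Bhlhe41 at -0.74 (SE 0.35) and Cry1 at 0.82 (SE 0.41).

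**Figure D3:**
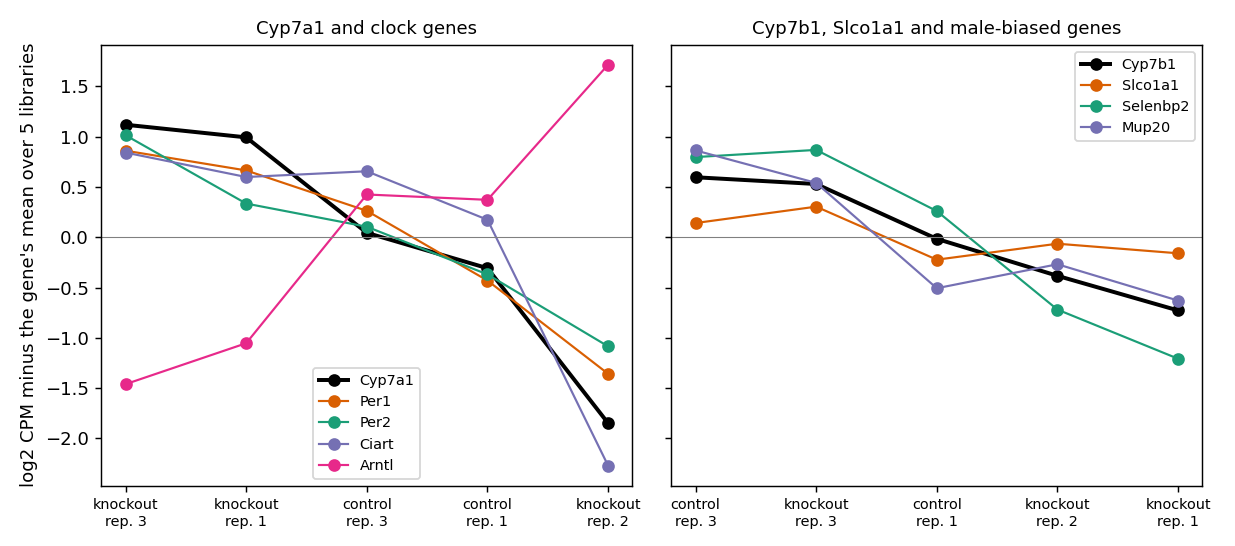
Log2 CPM of each gene minus its mean over the 5 libraries. On the left the libraries are ordered by Cyp7a1 (black): Per1, Per2 and Ciart are lowest in knockout replicate 2 and Arntl is highest there. On the right they are ordered by Cyp7b1 (black), shown with Slco1a1, Selenbp2 and Mup20.

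Cyp8b1 (ENSMUSG00000050445, chromosome 9, 121914356 to 121916305) had 382, 367 and 183 CPM in knockout and 176 and 286 CPM in control livers. The groups overlapped, since knockout replicate 3 lay beside control replicate 1. Its log2 fold change of 0.43 (SE 0.36) was 0.11 without control replicate 1 and 0.83 without control replicate 3. The 2 controls differed from each other by more than the group means did.

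In the alternative route, Cyp27a1, the mitochondrial sterol 27-hydroxylase, was higher in every knockout library. Cyp27a1 (ENSMUSG00000026170, chromosome 1, 74713574 to 74737892) had 435, 504 and 480 CPM in knockout and 415 and 338 CPM in control livers. The means of 473 ± 35.4 CPM (SD, n = 3) and 376 ± 54.0 CPM (SD, n = 2) differed by 1.26-fold, the log2 fold change was 0.33 (SE 0.16; interval -0.04 to 0.70), and it did not pass (edgeR adjusted p of 1.00). The lowest knockout library stood 4.81% above the highest control library.

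Cyp7b1, the oxysterol 7-alpha-hydroxylase that follows Cyp27a1 and is known to be higher in male than in female mouse liver, split the libraries across the groups. It had 160, 203 and 383 CPM in knockout and 262 and 401 CPM in control livers. Knockout replicate 3 and control replicate 3 were the 2 highest, and the log2 fold change was -0.41 (SE 0.38), falling between -0.87 without knockout replicate 3 and -0.07 without control replicate 3. Selenbp2 and Mup20, male-biased liver genes named after their values were seen, were also highest in these 2 libraries. Selenbp2 had 1650 CPM in knockout replicate 3 and 1571 CPM in control replicate 3, against 391, 549 and 1083 CPM in knockout replicates 1 and 2 and control replicate 1. Mup20 had 1465 and 1833 CPM in the first pair, against 651, 836 and 709 CPM. These 2 libraries were the highest pair in 5 of the 10 male-biased genes listed and in 1804 of all 16441 genes tested, and 1 of the 10 (C6) had the full order of Cyp7b1, which 0.560% of all genes had. Of the 10 male-biased genes listed, 3 had higher and 7 lower fitted values in knockout livers, the median log2 fold change being -0.21. None of the 10 passed in edgeR or DESeq2, and 1 (Serpina1e, at -1.65, SE 0.68) had an unadjusted p under 0.05. Cyp39a1, which hydroxylates 24-hydroxycholesterol, had 8.43, 9.93 and 14.9 CPM against 11.6 and 9.76 CPM, with a log2 fold change of 0.05 (SE 0.25).

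Ring modification could be followed in Akr1d1 but not in Hsd3b7. Akr1d1, the steroid 5-beta-reductase, had 272, 150 and 247 CPM in knockout and 165 and 193 CPM in control livers, and its fitted log2 difference was 0.32 (SE 0.26). Its highest library was knockout replicate 1 and its lowest knockout replicate 2, and the value was 0.15 without the first and 0.53 without the second. Hsd3b7, the 3-beta-hydroxysteroid dehydrogenase of bile acid synthesis, held 0 counts in all libraries. A count of 0 would allow up to 0.0891 to 0.101 CPM, depending on the library. However, 99.2% of the 2769 exon bases of Hsd3b7 are shared with the exons of other rows, among them Gm49388 on the same strand, which also held 0 counts in every library. The sources used here do not say how reads that match several genes were counted, so the 0 says nothing of the level of Hsd3b7.

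The peroxisomal enzymes that shorten the side chain divided. Acox2, the branched-chain acyl-CoA oxidase of this step, had 175, 208 and 119 CPM in knockout and 223 and 213 CPM in control livers. All knockout libraries lay below both controls, with 2.42% between the nearest ones. The log2 fold change of Acox2 was -0.38 (SE 0.23), and it was -0.19 without knockout replicate 3, the lowest library, and -0.57 without knockout replicate 2. Amacr, which interconverts the side chain epimers, was among the steadiest members with 145, 150 and 135 CPM against 146 and 154 CPM. Scp2 had 4742, 5154 and 4443 CPM against 4206 and 4483 CPM, a log2 fold change of 0.14 (SE 0.17). Of the further synthesis enzymes listed beside the members, 14 were tested, 13 with higher and 1 with lower fitted values (median 0.18). Of all genes tested, 52.1% had higher ones. The summed levels of the list overlapped, at 5753, 5092 and 5927 CPM in knockout and 4539 and 5404 CPM in control livers. None of the 14 passed in edgeR or DESeq2, and 1 had an unadjusted p under 0.05. That smallest p of that list belonged to Cyp46a1, the cholesterol 24-hydroxylase, at 10.4, 18.3 and 6.31 CPM in knockout and 2.51 and 5.12 CPM in control livers. The groups did not overlap in Cyp46a1, and its log2 fold change of 1.62 (SE 0.51) had an edgeR adjusted p of 1.00. Star, a mitochondrial cholesterol carrier, had 0.38 (SE 0.21) and Abcd3, a peroxisomal importer, 0.31 (SE 0.17). Cyp2c70, which makes muricholic acids in the mouse, stood at -0.05 (SE 0.24).

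The conjugation genes Baat and Slc27a5 had small fitted differences between the groups. Baat, which joins bile acids to taurine, had 287, 264 and 280 CPM in knockout and 264 and 297 CPM in control livers, so that the fitted log2 difference was -0.02 (SE 0.13; interval -0.33 to 0.30). Its highest and lowest library differed by 1.13-fold, the smallest range of the tested members. Slc27a5, which activates bile acids to their CoA esters, had 924, 847 and 1015 CPM against 1001 and 903 CPM. The log2 fold change of Slc27a5 was -0.04 (SE 0.15; interval -0.40 to 0.33).

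The acyl-CoA N-acyltransferases Acnat1 and Acnat2, neighbours of Baat on chromosome 4, had far less signal and a wider range. Acnat2 had 23.9, 32.4 and 9.28 CPM in knockout and 11.3 and 28.3 CPM in control livers, and Acnat1 22.4, 23.7 and 13.6 CPM against 13.1 and 21.6 CPM. In both genes knockout replicate 3 and control replicate 1 were the low libraries, whichever group they belonged to. The log2 fold changes of Acnat1 (0.20, SE 0.30) and Acnat2 (0.15, SE 0.56) turned negative without control replicate 1, at -0.13 and -0.37. Reads may be split between them, because 24.0% of the 50-base windows of Acnat1 transcripts occur in Acnat2 and 30.0% of those of Acnat2 in Acnat1.

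**Figure D4:**
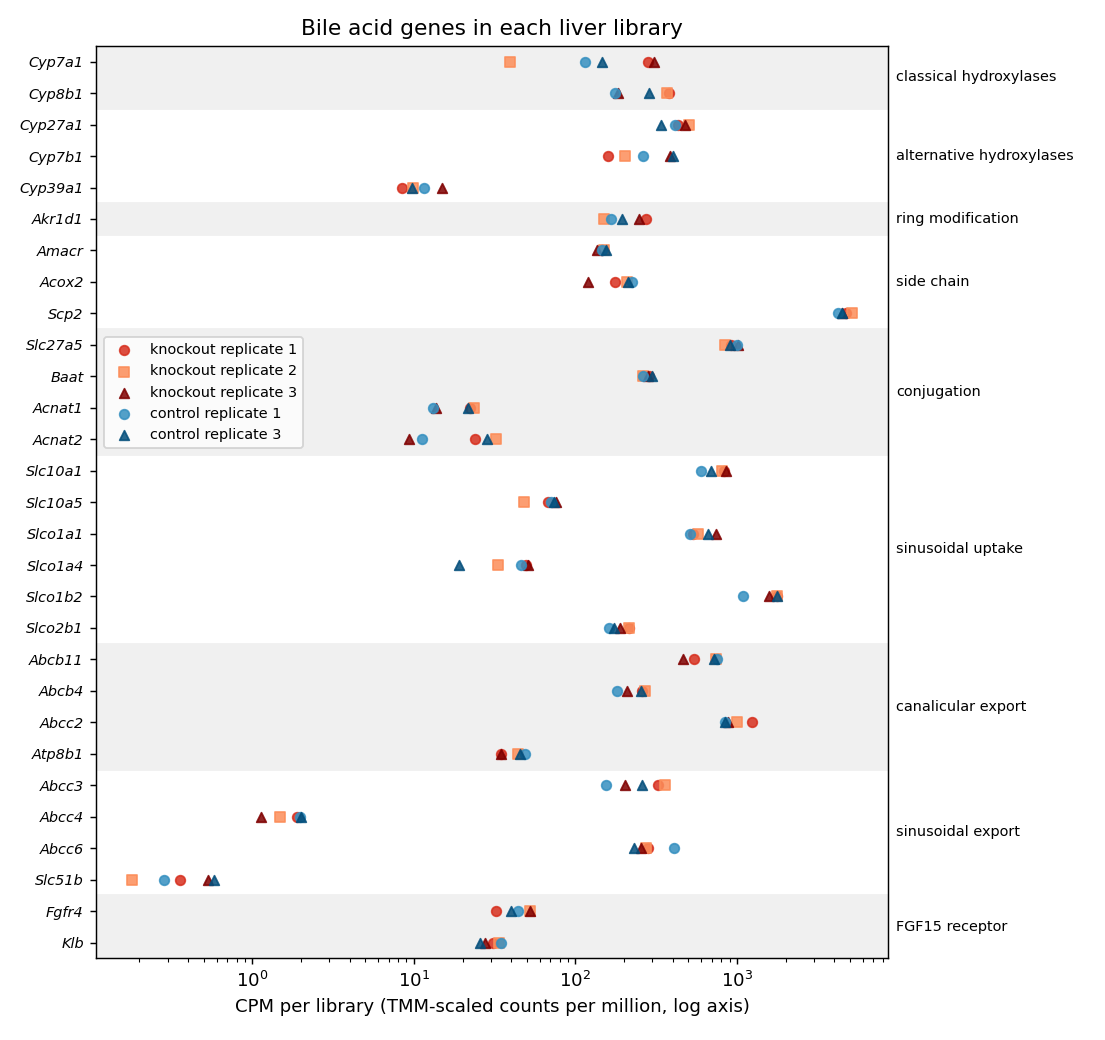
CPM of each tested member (log axis) in the 5 libraries, grouped by role: red, orange and dark red symbols are knockout and blue symbols control livers. Cyp7a1 spreads from 39.2 to 307 CPM with knockout replicate 2 at the low end, whereas Baat and Amacr lie in tight clusters.

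Sinusoidal uptake held the member with the smallest p. Slc10a1 (ENSMUSG00000021135, chromosome 12, 80953185 to 80968079) encodes NTCP, the sodium-dependent transporter that takes conjugated bile acids up from portal blood. It had 834, 805 and 860 CPM in knockout and 596 and 691 CPM in control livers. The knockout libraries lay together and the lowest of them was 16.4% above the higher control. The means of 833 ± 27.7 CPM (SD, n = 3) and 644 ± 67.3 CPM (SD, n = 2) differed by 1.29-fold. The edgeR adjusted p of Slc10a1 was 1.00, and its log2 fold change of 0.37 (SE 0.14) stayed between 0.26 and 0.49 when any 1 library was left out.

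The organic anion transporters that take up bile acids without sodium differed in how far the controls agreed. Slco2b1 had 216, 213 and 189 CPM in knockout and 160 and 173 CPM in control livers, with no overlap and a log2 fold change of 0.31 (SE 0.13; interval -0.01 to 0.62). Slco1b2, the main hepatic member of this family, had 1764, 1770 and 1584 CPM against 1088 and 1765 CPM. Only control replicate 1 stood low in Slco1b2, and the log2 fold change of 0.26 (SE 0.23) was -0.05 without it. In Slco1a4 the other control was the low one, with 49.5, 33.3 and 50.9 CPM against 45.7 and 18.9 CPM. The log2 fold change of Slco1a4 (0.46, SE 0.37) was 1.23 without control replicate 1 and -0.03 without control replicate 3. Slco1a1, which is known to be male-biased, had 538, 574 and 741 CPM against 514 and 662 CPM, a log2 fold change of 0.07 (SE 0.20). Slc10a5, an orphan relative of Slc10a1, had 68.0, 48.1 and 75.4 CPM against 70.9 and 74.1 CPM. Of the 6 uptake genes, 5 had higher fitted values, with a median of 0.28. Summed, the 6 came to 3469, 3444 and 3500 CPM in knockout and 2476 and 3385 CPM in control livers.

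Canalicular export genes went both ways. Abcb11 (ENSMUSG00000027048, chromosome 2, 69238282 to 69342616) encodes the bile salt export pump. It had 546, 742 and 461 CPM in knockout and 749 and 718 CPM in control livers. Knockout replicate 2 lay among the controls and the other knockout livers lay below them. The means were 583 ± 144 CPM (SD, n = 3) and 734 ± 21.7 CPM (SD, n = 2), and the log2 fold change of Abcb11 was -0.33 (SE 0.22; interval -0.85 to 0.19). It was -0.54 without knockout replicate 2 and -0.19 without knockout replicate 3, with an edgeR adjusted p of 1.00 in the fit on all libraries. Abcc2 (ENSMUSG00000025194, chromosome 19, 43782192 to 43840740), the exporter of conjugated organic anions, had 1244, 998 and 885 CPM against 842 and 845 CPM. Its groups did not overlap, and the log2 fold change of 0.30 (SE 0.18) was 0.16 without knockout replicate 1. Atp8b1, the phospholipid flippase that protects the canalicular membrane, had 34.6, 44.2 and 34.7 CPM against 48.9 and 45.2 CPM. The knockout libraries of Atp8b1 all lay below the controls, by 2.32% between the nearest ones, with a log2 fold change of -0.31 (SE 0.14; interval -0.66 to 0.03). Abcb4, the phosphatidylcholine exporter, had 258, 270 and 208 CPM against 180 and 255 CPM, a log2 fold change of 0.17 (SE 0.20) that was -0.06 without control replicate 1.

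The sequences before the start sites of the uptake transporters Slc10a1 and Slco1b2 and of the exporter Abcb11 are shown because these genes carry bile acids into and out of the hepatocyte and because each window shown holds AGGTCA, the half-site that many nuclear receptors bind. Slc10a1 has a further RefSeq start site, whose window held TATAAA and no AGGTCA and is not shown. Each sequence is the 250 bases before a RefSeq start site on GRCm38.p6, read 5′ to 3′ on the strand of the gene, with matches to the motifs named after them in capitals.
Slc10a1, chr12:80968080-80968329, minus strand: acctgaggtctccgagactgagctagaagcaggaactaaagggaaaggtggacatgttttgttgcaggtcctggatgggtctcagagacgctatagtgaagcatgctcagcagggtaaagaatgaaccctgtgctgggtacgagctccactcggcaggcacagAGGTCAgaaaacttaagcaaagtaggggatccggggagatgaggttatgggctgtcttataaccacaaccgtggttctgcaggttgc
Slco1b2, chr6:141629268-141629517, plus strand: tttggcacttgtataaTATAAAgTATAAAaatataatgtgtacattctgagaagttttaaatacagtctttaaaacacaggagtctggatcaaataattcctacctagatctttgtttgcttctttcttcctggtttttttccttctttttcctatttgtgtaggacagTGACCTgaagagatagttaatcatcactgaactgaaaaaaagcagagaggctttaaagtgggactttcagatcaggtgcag
Abcb11, chr2:69342617-69342866, minus strand: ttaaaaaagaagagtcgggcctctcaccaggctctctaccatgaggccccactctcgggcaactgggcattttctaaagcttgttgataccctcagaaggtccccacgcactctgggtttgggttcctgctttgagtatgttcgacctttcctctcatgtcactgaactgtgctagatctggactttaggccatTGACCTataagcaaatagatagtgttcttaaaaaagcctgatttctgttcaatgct

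The half-site AGGTCA began 87 bases before the start site in Slc10a1, and lay on the other strand 81 bases before it in Slco1b2 and 56 bases before it in Abcb11. The other capitals in Slco1b2 are TATAAA, 234 and 227 bases before the start site. Windows were at hand for 21 of the 31 members (27 windows, since some genes have several starts), and were searched on both strands. AGGTCA was found in 9 of the 27 (33.3%) and in 14.0% of all 32851 windows of this length. The TATA box TATAAA was found in 4 of 27 and in 12.4% of all, and the E-box CACGTG in 2 of 27 and in 6.02% of all. Found in 0 of the 27 were the PAR bZIP box TTACGTAA, the C/EBP box TTGCGCAA, the extended half-site TCAAGGTCA, the repeats of AGGTCA with AGGTCA or TGACCT after any 1 base, and GTTAAT with ATTAAC after any 1 base. These were in between 0.00609% and 0.387% of all windows, and the extended half-site and the repeats contain AGGTCA. Only exact letters were searched, so a 0 does not exclude a site with a changed base. In the Abcb11 window, aggcca stands 1 base before TGACCT, which is AGGTCA with C in place of T. A match is a string of letters and not evidence of binding.

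Of the exporters on the sinusoidal side, Abcc3 had the largest fitted difference. Abcc3, which returns conjugates to blood, had 327, 360 and 201 CPM in knockout and 156 and 257 CPM in control livers. The groups overlapped through knockout replicate 3, and the log2 fold change of 0.52 (SE 0.31) was 0.20 without control replicate 1 and 0.93 without control replicate 3. Abcc4 stood near the limit of use, with 58, 49 and 36 counts in knockout and 63 and 59 counts in control libraries. These are 1.89, 1.48 and 1.12 CPM against a control level of 1.99 ± 0.0146 CPM (SD, n = 2), all below both controls, with a log2 fold change of -0.41 (SE 0.28). Abcc6, a relative of these exporters, had 281, 274 and 254 CPM against 409 and 232 CPM, and its log2 fold change of -0.25 (SE 0.24) became 0.21 without control replicate 1.

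The 2 subunits of the organic solute transporter were nearly silent. Slc51a held 1, 0 and 0 counts in knockout and 0 and 1 counts in control libraries and was not tested. Slc51b held 11, 6 and 17 counts against 9 and 17 counts, where 18.6% of its exon bases are shared with Rasl12 on the opposite strand. Both are known to be induced in cholestasis, and neither showed a difference that could be detected at this depth.

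The genes of the FGF15 receptor did not pass in edgeR or DESeq2. Fgfr4 had 32.2, 52.2 and 52.2 CPM in knockout and 44.1 and 39.8 CPM in control livers. Its log2 fold change was 0.12 (SE 0.22; interval -0.41 to 0.65). Klb had 30.9, 33.8 and 27.4 CPM against 34.7 and 25.6 CPM, with 0.03 (SE 0.16; interval -0.37 to 0.42). Both groups overlapped in both genes.

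Among 17 tested regulators of the pathway, listed beside the members, 11 had higher and 6 lower fitted values (median 0.02). None passed in edgeR or DESeq2, and 0 had an unadjusted p under 0.05. FXR itself, Nr1h4, had 193, 144 and 226 CPM in knockout and 129 and 151 CPM in control livers. Its log2 fold change of 0.43 (SE 0.21) had the smallest p of the list, with knockout replicate 2 between the controls. SHP, Nr0b2, had 23.8, 17.8 and 34.2 CPM against 26.9 and 17.6 CPM, a log2 fold change of 0.18 (SE 0.30). LRH-1, Nr5a2, which drives Cyp7a1 and Cyp8b1, had -0.13 (SE 0.14). The xenobiotic receptors Nr1i3 and Nr1i2 had log2 fold changes of 0.69 (SE 0.42) and 0.21 (SE 0.18), and Fgf15 itself held 0 counts in every library. In the list of further transporters, 9 of 11 were higher (median 0.12) and 0 passed in edgeR or DESeq2. Its summed levels overlapped, at 1107, 1137 and 1035 CPM in knockout and 820 and 1069 CPM in control livers. Abcb1a, a drug efflux pump, was the 1 with an unadjusted p under 0.05, at 0.45 (SE 0.16). Abcg5, which exports sterols into bile, stood at 0.26 (SE 0.17). Of 13 genes of the canalicular machinery, 8 were higher and 5 lower (median 0.03), with 0 past the threshold in edgeR or DESeq2 and 0 at an unadjusted p under 0.05. The smallest p values were those of Aqp8 at 0.85 (SE 0.57), Aqp9 at 0.23 (SE 0.16) and Stx3 at 0.19 (SE 0.13).

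The classical route is known to run mainly in hepatocytes near the central vein. Of 10 pericentral markers 9 had higher fitted values (median 0.16), and of 10 periportal markers 8 had lower ones (median -0.30), with 0 of each past the edgeR threshold and 1 of each (Glul and Hal) at an unadjusted p under 0.05. The log2 fold changes were 0.47 (SE 0.18) for Glul, 0.37 (SE 0.17) for Cyp2e1 and -0.21 (SE 0.16) for Tbx3. Hal, the periportal gene with the smallest p, stood at -0.79 (SE 0.17) with a DESeq2 adjusted p of 0.0237, the 1 DESeq2 call among these 20 genes, and it was followed by Sds (-0.52, SE 0.28) and Cdh1 (-0.58, SE 0.35). Whether the zone markers and the bile acid genes moved together was not tested.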

How the data were processed

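Raw counts of reads for each gene, with exon positions and exon length, were in the single table the authors deposited, per the file headers. FastQC, Trimmomatic 0.33, Subread 1.4.6-p4, featureCounts 1.4.6-p4 and the builds mm10 and GRCm38 are named per the submitters' processing notes. Strand setting, handling of multiply matching reads and annotation release: not given in the sources used here. Total RNA from whole liver was made into TruSeq libraries and run on a HiSeq2500, per the labels' protocols. Symbols came from GENCODE vM21 on the same build, which matched 46488 of 46983 rows and all 31 members. The gene spans in the table and in GENCODE were equal for 25 of the 31.

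Genes were kept by filterByExpr (16441) and tested with glmQLFit and glmQLFTest of edgeR (two-sided quasi-likelihood test), with TMM scaling and Benjamini-Hochberg adjustment over all kept genes at 0.05. CPM used TMM-scaled library sizes, and RPKM divided CPM by exon length in kilobases. The SE was taken as the log2 value over the root of its F statistic. DESeq2, limma-voom with quality weights, other scalings, no low-count filter, a replicate block, all 6 columns and leaving out each library were the alternatives. On simulated counts for this comparison (3 against 2 libraries, 16441 genes), the edgeR test recovered 5.33% of 1.5-fold, 62.7% of 2-fold and 99.3% of 4-fold changes. It called 0.123% of genes left as they were. Changes were planted only in genes above a CPM level that Abcc4 and Slc51b did not reach. Each gene was drawn independently of the others, so these rates may not hold for all members. Many genes were changed at once in the simulated counts, some of them 8-fold, which eases the adjusted threshold. The main fit called 1 gene, so recovery in these data may be lower than the rates given. The tools were DESeq2 1.42.0, limma 3.58.1 and edgeR 4.0.16 under R 4.3.3, and Python 3.11.15.

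The members and lists were chosen with earlier results of these data known. Named were all members, Mtdh, Nr1h4, Nr0b2, Nr5a2 and Cyp2c70, and the 3 genes of smallest p in each list, while the lists of cell types and of sex-biased genes are given mainly by counts or levels. Some named genes and 1 motif searched are not reported here. Of the latter, the 6 tested female-biased genes had 2 higher and 4 lower fitted values (median -0.28), the 7 hepatocyte markers 3 and 4 (median -0.01), the 7 tested bile duct markers 2 and 5 (median -0.07) and the 2 tested adipocyte markers 1 and 1. None of these passed in edgeR or DESeq2, and 1 (Sox9) had an unadjusted p under 0.05. Counting error alone gives floors of 3 counts, or 0.0891 to 0.101 CPM, since the reads carry no molecular identifiers.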

Additional observations from a re-analysis of the deposited data

How the results depend on the processing

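The main fit called no member, so the alternatives had no call of a member to reverse. Over all genes, calls numbered 1 in the main edgeR fit, 18 with DESeq2, 3 without a low-count filter, 1 to 6 when 1 library was left out, and 0 with the replicate number as a block. DESeq2 without knockout replicates 1, 2 and 3 called 6, 48 and 69 genes, and without control replicates 1 and 3 it called 19 and 143. These DESeq2 fits were chosen after seeing the data. With 1 control left, that library is assumed to vary like the knockout group. No member was called in any of these fits except Cyp7a1, the 1 member called by DESeq2 without knockout replicate 2. The number of higher members lay between 15 and 19 of 29. Their median log2 fold change lay between 0.04 and 0.19 in edgeR fits without 1 library, and was -0.0139 with DESeq2 without control replicate 1. In the fit with the replicate block, 0 members were called and 18 were higher, as in the main fit. The shared numbers 1 and 3 correlated by 0.06 and 0.15 in their deviations, and knockout replicate 2 with control replicate 1 by 0.11. With 2 controls the deviations of 1 mirror those of the other, so these values cannot show pairing. The labels do not say that shared numbers pair mice. Knockout replicate 2 had no partner, so Cyp7a1 had a log2 fold change of 1.19 in the fit with the block. Of the 29 members, 16 kept their sign in all 17 other fits, 9 higher and 7 lower. Without 1 library, counted after seeing the data, 5 to 12 members had all knockout libraries above the controls and 3 to 7 below, fewer libraries making this easier (12.9% to 24.9% and 14.0% to 25.6% of all genes). With 2 distinct control libraries, 1 control mouse can set a value, as in Slco1b2 and Slco1a4.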
